A study of Mus musculus with 6 samples.

Results

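Lymphatic endothelial cells line the vessels that carry fluid, immune cells and absorbed fat away from the gut. Their identity rests on a small network of transcription factors, and 8 of these genes are described here: Prox1, Sox18, Nr2f2, Gata2, Tbx1, Hhex, Erg and Fli1. They are 8 of the 33697 genes counted. In the embryo, SOX18 and NR2F2 (COUP-TFII) switch on Prox1 in cells of the veins, and PROX1 then sets and keeps the lymphatic programme. GATA2 is needed for lymphatic valves, TBX1 for lymphatic growth in several organs, and HHEX acts upstream of VEGF-C signalling, while the ETS factors ERG and FLI1 are shared by blood and lymphatic endothelium.

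The cells came from Flare-TSLP mice on a C57BL/6 background, whose Tslp gene carries a reporter cassette encoding the red protein tdTomato. Live tdTomato+ cells of the lamina propria were sorted and captured in droplets in 6 libraries, namely 2 of the proximal jejunum (proximal small intestine), 2 of the distal ileum (distal small intestine), 1 of the cecum and 1 of the large intestine. Values for jejunum and ileum are given in the order of replicates 1 and 2. All groups carried the reporter, and the labels give no treatment, age or sex. Each library held 3 hashtags (barcoded antibodies), but no table pairs them with mice, so a library counts as 1 sample and p-values measure the spread between libraries only. Replicate 1 of jejunum and ileum, the cecum and the large intestine had 1 set of hashtags, and both replicates 2 had another set. Libraries held 109675337 to 206827504 UMIs (tags of captured molecules) on genes and 11174 to 19073 cells after filters and doublet removal, and any pair shared 36 to 100 cell barcodes, at most 0.597% of the smaller library.

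Lymphatic cells were those with a UMI of at least 3 of Lyve1, Flt4, Mmrn1, Reln and Ccl21a and no UMI of Pdgfra or Ptprc. This gate held 14523 of the 93558 cells, or 15.5%, and from 218 cells in the cecum to 5765 in distal replicate 2. Their share was 15% and 31.4% in jejunum, 3.83% and 32% in ileum, 1.67% in cecum and 2.2% in large intestine. Blood endothelial cells had at least 3 of Flt1, Plvap, Emcn, Cd93 and Rgcc with at most 1 lymphatic marker and numbered 949, with 399 and 139 in jejunum, 153 and 131 in ileum, 112 in the large intestine and 15 in the cecum. The cecum was left out of the blood endothelial levels and tests because sums under 20 cells were not used. Fibroblasts had Pdgfra, at least 3 of 5 collagen and proteoglycan genes and at most 1 lymphatic and 1 blood endothelial marker, and numbered 60380. Neither class had a UMI of Ptprc, and blood endothelial cells had none of Pdgfra. All gates but the lymphatic one allowed at most 1 lymphatic marker. Such limits leave out cells with more lymphatic RNA, which can lower the level of lymphatic genes in the other classes. A UMI of the tdTomato transcript was found in 178 lymphatic cells (1.23%), in 2046 fibroblasts (3.39%) and in 0 of 949 blood endothelial cells (those of the cecum included), which allows a share of up to 0.316%.

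Of the gated cells, 14052 (96.8%) had all 5 gate markers, which describes the gate and is no check of it. Among genes the gate did not use, the podoplanin gene Pdpn, a lymphatic surface protein also made by gut fibroblasts, had 265 to 313 CPM in lymphatic cells against 4.7 to 9.76 in blood endothelial cells. CPM here scale each class of a library to a total of 1000000 UMIs, and since the kit tags the 3′ end of each molecule they were not divided by gene length. The 5 blood endothelial markers summed to 501 to 961 CPM in lymphatic cells against 6935 to 8417 in blood endothelial cells, and the 5 fibroblast markers to 526 to 880 against 20230 to 31187 in fibroblasts, both classes having been gated on those same markers. The 5 markers of mural cells, which surround small vessels, summed to 32.3 to 319 in lymphatic cells and the 5 smooth muscle markers to 50.9 to 140. In fibroblasts they summed to 74.6 to 1073 and 92.1 to 165. Of the immune lists, the 5 T cell or ILC markers summed to at most 65.1, the 4 B cell markers to at most 2.68 and the 5 myeloid markers to at most 19 in lymphatic cells.

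Sequences of 4 promoters are shown, those of the 3 members that were higher in lymphatic than in blood endothelial cells (Prox1, Tbx1 and Nr2f2) and of Erg, which was lower. They are RefSeq windows of 300 bases (250 before and 50 after a start) from a table of build GRCm38.p6, placed on GRCm39 by an exact match that occurred once on the chromosome. The table held 11 windows of 6 members. The window with the most matches was taken for each gene. Capitals mark matches on either strand to GGAAG (the core of ETS sites), AACAAT or ACAAAG (SOX), GATAA (GATA) and AGGTCA (a nuclear receptor half-site), and all are written 5′ to 3′ on the strand of the gene. The windows lie on the minus strand at chr1:189901663-189901962 (Prox1, a start inside the annotated gene and downstream of its 5′ end), chr16:18409372-18409671 (Tbx1), chr7:70016445-70016744 (Nr2f2) and chr16:95260158-95260457 (Erg, also a start inside the gene).
Prox1: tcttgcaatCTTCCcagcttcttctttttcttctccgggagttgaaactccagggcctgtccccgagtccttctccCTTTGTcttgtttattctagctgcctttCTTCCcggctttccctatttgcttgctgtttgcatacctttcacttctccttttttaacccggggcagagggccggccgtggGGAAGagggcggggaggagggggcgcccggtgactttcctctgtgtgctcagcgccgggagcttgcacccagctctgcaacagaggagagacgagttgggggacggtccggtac
Tbx1: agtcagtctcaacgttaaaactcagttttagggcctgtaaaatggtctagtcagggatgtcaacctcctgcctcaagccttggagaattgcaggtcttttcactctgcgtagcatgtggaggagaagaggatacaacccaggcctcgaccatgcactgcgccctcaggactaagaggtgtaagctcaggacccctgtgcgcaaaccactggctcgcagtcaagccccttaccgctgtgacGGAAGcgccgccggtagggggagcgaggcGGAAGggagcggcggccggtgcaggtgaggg
Nr2f2: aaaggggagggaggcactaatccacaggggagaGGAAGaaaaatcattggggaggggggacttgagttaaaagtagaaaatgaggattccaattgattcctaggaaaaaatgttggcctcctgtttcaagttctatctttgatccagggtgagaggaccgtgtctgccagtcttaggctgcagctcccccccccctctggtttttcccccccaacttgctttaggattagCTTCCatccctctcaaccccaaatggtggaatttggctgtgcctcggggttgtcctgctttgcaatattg
Erg: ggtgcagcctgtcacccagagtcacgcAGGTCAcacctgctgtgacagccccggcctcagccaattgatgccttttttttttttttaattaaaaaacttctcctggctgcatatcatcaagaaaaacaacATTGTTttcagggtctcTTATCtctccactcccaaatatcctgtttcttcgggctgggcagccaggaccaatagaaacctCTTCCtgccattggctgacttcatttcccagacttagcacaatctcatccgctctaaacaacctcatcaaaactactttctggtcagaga

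The Prox1 window held 3 matches to the ETS core and 1 to a SOX site, the Tbx1 and Nr2f2 windows 2 each to the ETS core, and the Erg window 1 each to the ETS, SOX, GATA and half-site letters. Of all 32851 windows in the table, 71.4% held GGAAG, 10.7% AACAAT, 18.7% ACAAAG, 25.4% GATAA and 16.3% AGGTCA. Because the printed windows were picked for their matches, they are not to be set against these shares. The second Prox1 window held 1 match, the second Tbx1 window 0 and the other Erg windows 1 and 0. Neither Gata2 window held any of these letters, and the Hhex window held 1 GGAAG. These matches describe the letters and were not tested for binding.

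Summed per class, Prox1, Nr2f2 and Tbx1 were higher in lymphatic than in blood endothelial cells, while Sox18, Gata2, Hhex, Erg and Fli1 were lower. All 8 were higher in lymphatic cells than in fibroblasts. With the quasi-likelihood test of edgeR on UMIs summed per library and class (Benjamini-Hochberg adjustment over all genes tested, adjusted p under 0.05), 8 of 8 members were called higher in lymphatic cells than in fibroblasts, against 28.0% of the 17322 genes tested (37.5% were called lower, and 65.4% in either direction). Against blood endothelial cells, 3 of 8 were called higher and 5 of 8 lower, against 24.8% and 26.6% of 10914 genes (51.4% in either direction). The median fitted log2 fold change of the 8 was 7.05 over fibroblasts and -0.74 over blood endothelial cells, against -0.10 and 0.01 over all genes tested.

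**Figure D1:**
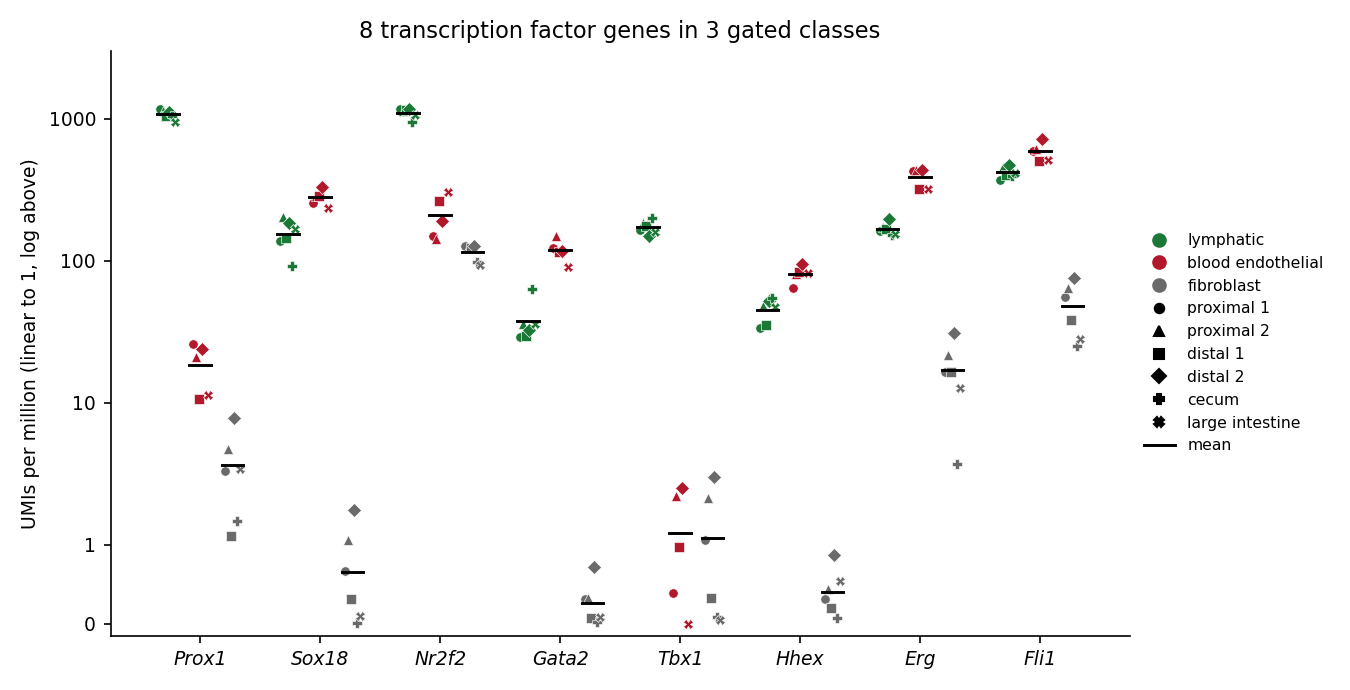
Levels of the 8 genes (vertical axis, CPM, linear to 1 and logarithmic above) in lymphatic, blood endothelial and fibroblast cells, with 1 symbol per library and a line at the mean. Prox1 lay at 941 or more in all 6 lymphatic sums and at 26 or less in every other sum, whereas the blood endothelial sums of Sox18, Gata2, Hhex, Erg and Fli1 lay above the lymphatic sums.

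Prox1 (chr1:189850232-189904637 on GRCm39, minus strand) encodes the homeobox factor that specifies lymphatic fate. Its level in lymphatic cells was lowest at 941 CPM in the large intestine, had a median of 1078 and was highest at 1172 in proximal replicate 1. In blood endothelial cells it was 26 and 21 in jejunum, 10.7 and 23.9 in ileum and 11.3 in the large intestine. The groups did not overlap, and the fitted log2 fold change was 5.73 ± 0.16 (standard error, n = 5 libraries, edgeR adjusted p = 9.02e-09), or 53.1-fold. In fibroblasts Prox1 lay between 1.16 and 7.83 CPM with a median of 3.36, and the log2 fold change over them was 8.40 ± 0.39 (n = 6, edgeR adjusted p = 3.75e-07). Several noncoding genes overlap Prox1, among them Prox1os on the opposite strand.

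Tbx1 (chr16:18399729-18409421, minus strand), a T-box factor, had the largest fold change over blood endothelial cells among the 8. Lymphatic cells had 150 to 200 CPM with a median of 169. Blood endothelial cells had 0.394 and 2.21 in jejunum, 0.976 and 2.51 in ileum and 0 in the large intestine, so each of those sums held 0 to 2 UMIs and the fitted fold change depends on the prior count. The log2 fold change was 7.28 ± 0.28 (n = 5, edgeR adjusted p = 3.11e-08) over blood endothelial cells and 7.89 ± 0.80 (n = 6, edgeR adjusted p = 3.84e-05) over fibroblasts, in which it ranged from 0.0424 to 3.02. Blood endothelial cells and fibroblasts overlapped, with a log2 difference of -0.18 ± 0.60 between them (n = 5, edgeR adjusted p = 0.824).

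Nr2f2 (chr7:70001692-70016519, minus strand), the nuclear receptor of veins and lymphatics, was also raised over blood endothelial cells. Its lymphatic level ran from 940 in the cecum through a median of 1137 to 1163 in proximal replicate 1, a narrow range with an SD of 86.6 around a mean of 1099. In blood endothelial cells it was 149 and 143 in jejunum, 265 and 191 in ileum and 306 in the large intestine. The lymphatic values were all above these, at a log2 fold change of 2.35 ± 0.19 (n = 5, edgeR adjusted p = 3.88e-06), which was 3.12 when every cell was thinned to 2500 UMIs. Fibroblasts were not free of Nr2f2 and had 93 to 126 CPM, so lymphatic cells lay 3.21 ± 0.09 above them on the log2 scale (n = 6, edgeR adjusted p = 4.74e-08).

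Gata2 (chr6:88170559-88184018, plus strand) encodes a zinc finger factor of endothelial and blood-forming cells. It was the member that differed most in favour of blood endothelium. Its level was 122 and 148 CPM in jejunum, 115 and 117 in ileum and 90.2 in the large intestine in blood endothelial cells, against 28.8 to 63.4 with a median of 34.2 in lymphatic cells. The groups did not overlap and the log2 fold change was -2.02 ± 0.11 (n = 5, edgeR adjusted p = 3.37e-07), which puts lymphatic cells at 0.247 of the blood endothelial level. In fibroblasts Gata2 did not exceed 0.726, and the log2 fold change of lymphatic cells over them was 7.26 ± 0.53 (n = 6, edgeR adjusted p = 4.92e-06).

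Erg (chr16:95160028-95387452, minus strand) and Fli1 (chr9:32333500-32454157, minus strand) are ETS factors that keep endothelial genes on. Blood endothelial cells had 428 and 435 CPM of Erg in jejunum, 318 and 431 in ileum and 318 in the large intestine, whereas lymphatic cells ranged from 152 through a median of 164 to 196. The log2 fold change of Erg was -1.31 ± 0.09 (n = 5, edgeR adjusted p = 1.23e-06). For Fli1 the blood endothelial values were 591 and 608 in jejunum, 504 and 723 in ileum and 514 in the large intestine, and the lymphatic values 372 to 471 with a median of 406. All lymphatic values of both genes were below all blood endothelial values, although the difference of Fli1 was the smallest of the 8, at -0.61 ± 0.08 on the log2 scale (n = 5, edgeR adjusted p = 0.000178). Over fibroblasts the log2 fold change was 3.44 ± 0.29 for Erg (n = 6, edgeR adjusted p = 1.2e-05) and 3.18 ± 0.17 for Fli1 (n = 6, edgeR adjusted p = 8.59e-07).

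Sox18 (chr2:181311629-181313438, minus strand), a SOXF factor, and Hhex (chr19:37423258-37429179, plus strand), a homeobox factor, were the other two members below their blood endothelial level. Sox18 stood at 256 and 285 CPM in the blood endothelial sums of jejunum, 285 and 331 in ileum and 235 in the large intestine, against 91.4 to 202 with a median of 156 in lymphatic cells. Its log2 fold change was -0.88 ± 0.10 (n = 5, edgeR adjusted p = 5.44e-05). Hhex stood at 63.8 and 80.8, 83 and 95.5, and 81.8 in the same order, against 33.7 to 55 with a median of 47.8 in lymphatic cells, a log2 fold change of -1.05 ± 0.10 (n = 5, edgeR adjusted p = 1.82e-05). Neither gene exceeded 1.76 in a fibroblast sum, so the log2 fold changes over fibroblasts were large, at 8.28 ± 0.58 for Sox18 (edgeR adjusted p = 3.68e-06) and 6.84 ± 0.34 for Hhex (edgeR adjusted p = 5.09e-07, n = 6 each).

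**Figure D2:**
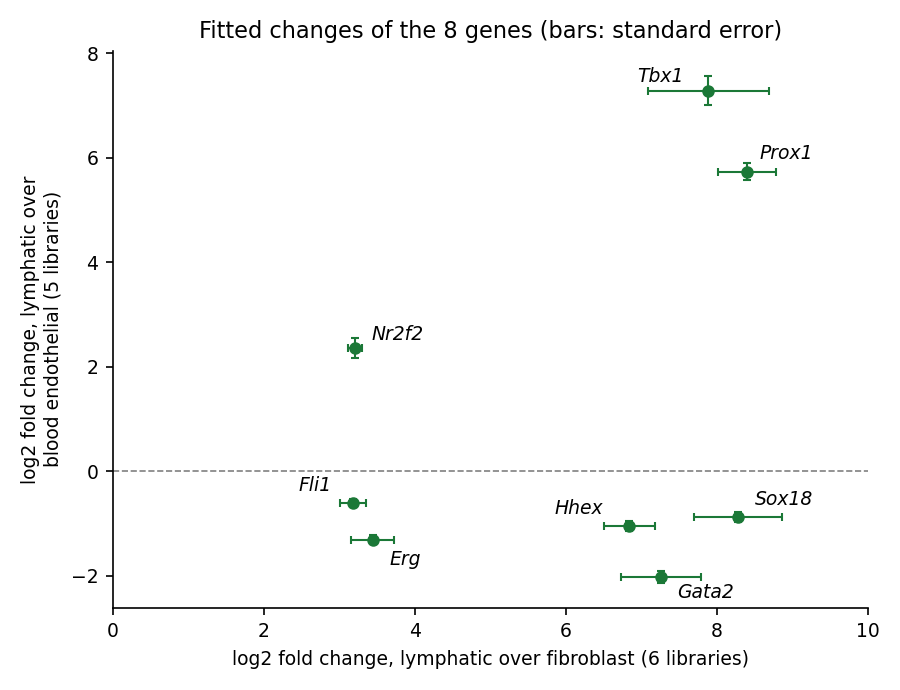
Fitted log2 fold change of each member in lymphatic cells over fibroblasts (horizontal, n = 6 libraries) against that over blood endothelial cells (vertical, n = 5 libraries), with standard errors. All 8 lie right of 0, and Tbx1, Prox1 and Nr2f2 lie above the dashed line at no difference from blood endothelial cells while the other 5 lie below it.

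In blood endothelial cells Sox18, Gata2, Hhex, Erg and Fli1 were well above fibroblasts, while Prox1 and Nr2f2 were raised by less. Against fibroblasts, 7 of 8 members were called higher in blood endothelial cells, against 24.6% of 16278 genes (31.6% were called lower, and 56.2% in either direction). Tbx1 was the member not called, at -0.18 ± 0.60. The fitted log2 fold changes of the 7 called ran from 0.84 ± 0.20 for Nr2f2 (edgeR adjusted p = 0.00526) to 8.89 ± 0.38 for Gata2 (edgeR adjusted p = 1.9e-08, n = 5 each). The Nr2f2 difference was -0.06 when cells were thinned to 2500 UMIs (edgeR adjusted p = 0.835), so the call was lost. Prox1, at a log2 fold change of 2.40 ± 0.28 (edgeR adjusted p = 3.51e-05, n = 5), lay below the free RNA level (droplets with 100 UMIs or fewer) in all 5 libraries, with 26 CPM against 99.6 and 21 against 198 in jejunum, 10.7 against 30.6 and 23.9 against 222 in ileum and 11.3 against 18.3 in large intestine. The part of free RNA in this Prox1 difference was not tested. This comparison and the one of lymphatic cells with fibroblasts share the fibroblast sums.

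The members with the highest folds over fibroblasts were also those nearest to 0 in fibroblasts, so their levels are set beside free RNA. The members were present too in droplets with 100 UMIs or fewer, taken as free RNA, and the fibroblast level was 2.37% to 18.6% of the free RNA level for Prox1, 0.655% to 3.33% for Sox18, 2.09% to 4.22% for Gata2, 0.878% to 3.61% for Tbx1 and 1.98% to 8.96% for Hhex. For Erg, Fli1 and Nr2f2 it was higher, at 38.6% to 77.9%, 42.9% to 93% and 33.4% to 99.9%. Fibroblast Prox1 was 7.83 and 4.69 CPM in distal replicate 2 and proximal replicate 2, where lymphatic cells were most frequent, and 3.33 in proximal replicate 1. Where lymphatic cells were rare it was 1.16 in distal replicate 1, 1.48 in cecum and 3.4 in large intestine, so the large intestine, at 2.2% lymphatic cells and the highest share of the free RNA level, did not follow that order. Fibroblast Sox18, Gata2 and Tbx1 were likewise highest in distal replicate 2. The fibroblast gate itself left out cells with more lymphatic or blood endothelial markers. Neither the part of that limit nor the part of free RNA in these fibroblast levels was tested.

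Lymphatic cells carried several of the 8 factors at once. With each cell thinned to 2500 UMIs, a UMI of Prox1 was found in 85.4% to 90% of lymphatic cells, of Nr2f2 in 83% to 91.7%, of Fli1 in 54.1% to 64.9%, of Tbx1 in 31.7% to 38.6%, of Erg in 27.1% to 36.3% and of Sox18 in 18.3% to 38.7%. Hhex and Gata2 were sparser, at 7.36% to 13.3% and 4.47% to 12.8%. Without thinning, Prox1 was found in 93.1% to 97.5% of lymphatic cells and Gata2 in 15% to 22.4%, at a median of 4573 to 7462 UMIs per cell. In fibroblasts thinned Prox1 was found in 0.325% to 1.88% of cells, at 6730 to 9602 UMIs per cell before thinning.

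Per cell, the mean number of members detected after thinning was 3.31 to 3.72 in lymphatic cells, and between 74.8% and 86.1% of them had at least 3. In blood endothelial cells thinned Fli1 was found in 66% to 71.2%, Erg in 43.8% to 63.4%, Sox18 in 40.3% to 44.1% and Gata2 in 15.2% to 30.9% of cells, against Prox1 in 1.96% to 5.04%. Thinned Nr2f2 was found in 12.2% to 21.4% of them, and in 23% to 30.4% without thinning. Its blood endothelial level thus came from a minority of cells, whose own level was not tested against lymphatic cells. Fibroblasts mostly had none, with 56% to 75.1% of the cells of a library without a UMI of any member. The members found most often in fibroblasts were Nr2f2, in 18.7% to 25.8% of cells, and Fli1, in 5.68% to 15.7%.

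**Figure D3:**
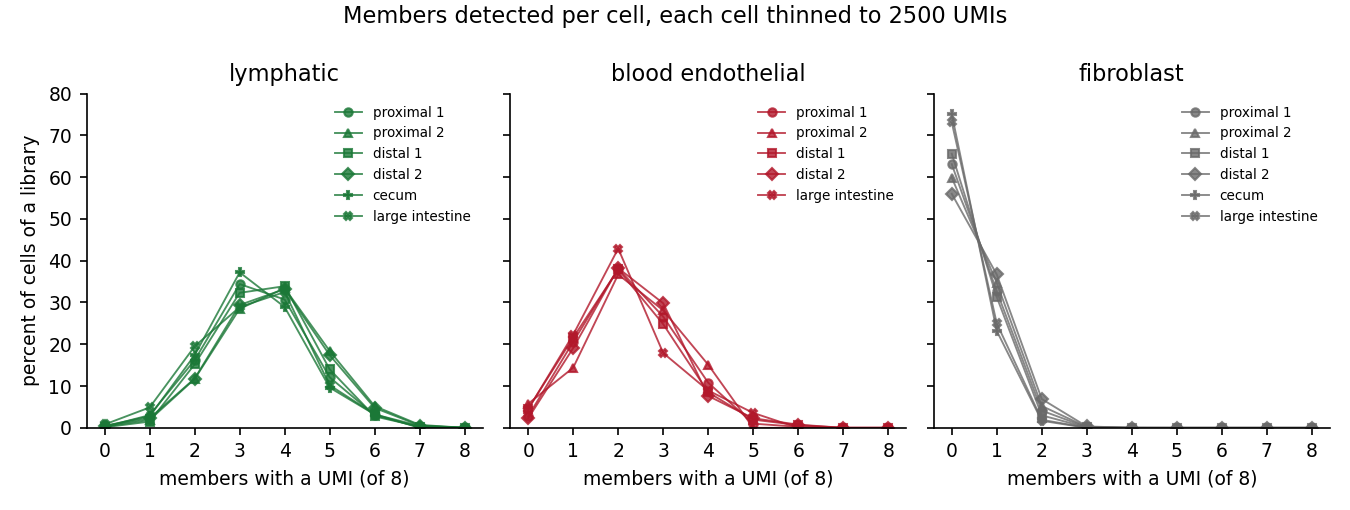
Percent of the cells of a library (vertical) by the number of members with a UMI (horizontal, 0 to 8), for the 3 classes, 1 line per library with at least 20 cells of the class and each cell thinned to 2500 UMIs. Lymphatic lines peak at 3 or 4 members, blood endothelial lines at 2 and fibroblast lines at 0.

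Across all gated classes, Prox1 and Tbx1 were the members whose lymphatic level stood apart from all other classes. The next class was blood endothelial cells at a median of 21 CPM for Prox1 and mural cells at 2.62 for Tbx1, and the ranges of neighbouring classes overlapped from there down. Sox18, Gata2 and Erg marked the endothelium, with blood endothelial cells first, lymphatic cells next and no overlap between them or with the class that followed. In no class other than these did Sox18 exceed 7.87 or Gata2 exceed 2.53, whereas Erg reached 30.9 in fibroblasts and 20 in smooth muscle cells. These levels are given as a description, without a test.

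The other 3 members were shared with cells outside the endothelium. Nr2f2 was as high in mural cells, the contractile cells around small vessels, as in lymphatic cells, at 986 to 1311 against 940 to 1163, and these ranges overlapped. Fli1 had its highest median in T cells or ILCs, at 582 to 856 (n = 4), a range that overlapped that of blood endothelial cells. B cells had 355 to 525 of Fli1, overlapping both endothelial classes, and myeloid cells 147 to 310 (n = 3), below lymphatic cells. Hhex was found in myeloid cells at 30.7 to 72.2 (n = 3) and in B cells at 7.56 to 99, both overlapping lymphatic cells. Mast cells gave no cell, and epithelial cells passed 20 cells in 1 library only.

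**Figure D4:**
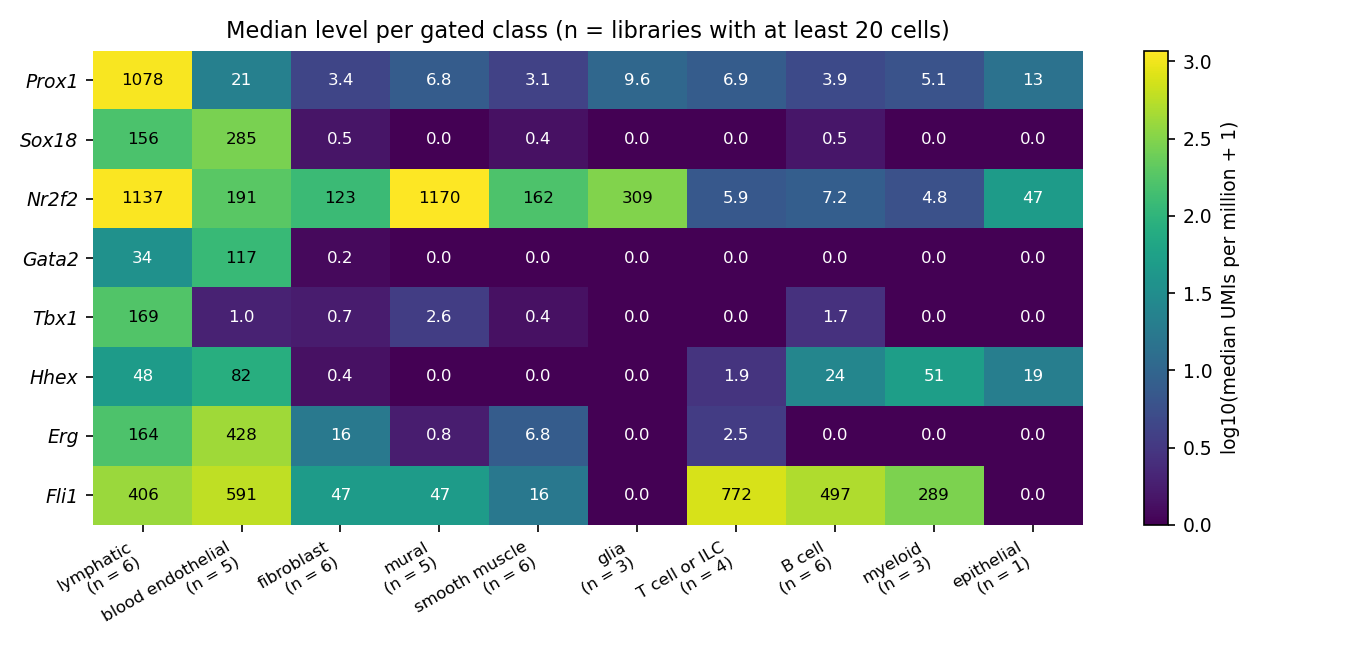
Median level of each member (rows) in each gated class (columns, n is the number of libraries with at least 20 cells), with the median in CPM printed and coloured on a log10 scale. The Prox1 and Tbx1 rows stand out in the lymphatic column only, the Nr2f2 row in lymphatic and mural columns, and the Fli1 row also in the T cell or ILC, B cell and myeloid columns.

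At the border of the gate, Prox1, Tbx1 and Nr2f2 were far below their level in the whole gate. Only 168 gated cells had exactly 3 of the 5 lymphatic markers, and 571 cells outside it had exactly 2 with no Pdgfra and Ptprc. In the 3 libraries with at least 20 cells of the first kind, Prox1 was 45.8, 82.9 and 102 CPM (proximal replicates 1 and 2 and distal replicate 2). In the 4 libraries with at least 20 cells of the second kind it was 4.81, 8.03, 0 and 11.1 (the same libraries with distal replicate 1 before distal replicate 2). The whole gate had a median of 1078.

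Erg, Gata2, Sox18 and Hhex at the border differed between libraries. In the cells with 2 markers Erg was 258 in proximal replicate 1 against 161 in its whole gate, but 78.8 in distal replicate 2 against 196, and Gata2 was 69.8 against 28.8 and 23.2 against 32.7 in the same libraries. Distal replicate 2 held 262 of the 571 cells with 2 markers and 81 of the 168 with 3, and in the latter Erg was 122 and Gata2 30.4. Fli1 in the cells with 2 markers was 338 and 298 in jejunum and 341 and 184 in ileum, below the whole gate of each library at 372, 456, 398 and 471. Sox18 in the cells with 2 markers was 149 and 111 in jejunum and 111 and 58.4 in ileum, against 138, 202, 145 and 185 in the whole gate. Hhex there was 53.8 and 23.5 in jejunum and 31.7 and 16.7 in ileum, against 33.7, 48.1, 35.3 and 51.7. Both were above the whole gate in proximal replicate 1 and below it in the other libraries given. In the cells with 3 and with 2 markers Tbx1 was 0 to 12.7 and 1.6 to 7.93, and Nr2f2 221 to 443 and 179 to 260. Cells with 3 or more blood endothelial markers made up 543 of the gated cells (3.74%). With lymphatic cells limited to those with at most 1 blood endothelial marker, a choice made after the data had been seen, the log2 fold change over blood endothelial cells was 5.74 for Prox1, -2.06 for Gata2 and -1.34 for Erg.

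**Figure D5:**
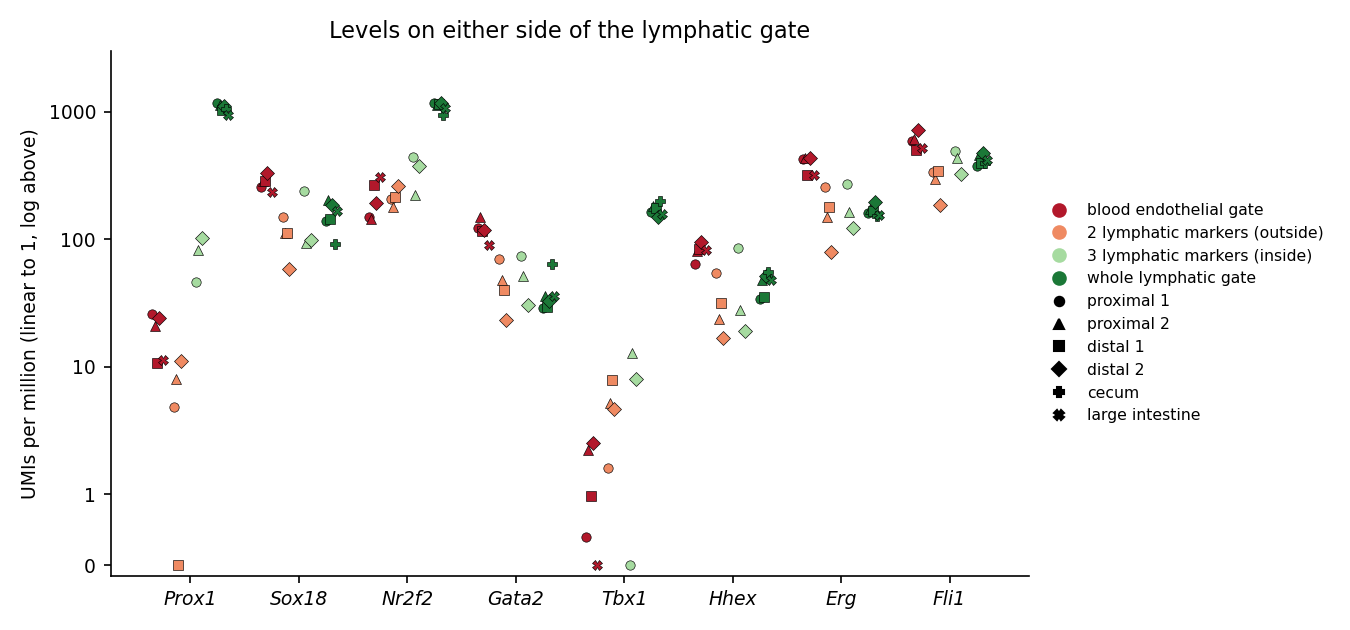
Levels of the 8 genes (vertical axis, CPM, linear to 1 and logarithmic above) in the blood endothelial gate, in cells with 2 lymphatic markers just outside the lymphatic gate, in cells with 3 markers just inside it and in the whole gate, 1 symbol per library with at least 20 such cells. In the sums shown, Prox1 was at most 102 at the border and at least 941 in the whole gate, while the border values of Erg ran from 78.8 to 269 against 152 to 196 in the whole gate.

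Along the gut the question is whether lymphatic cells of different segments differ in these factors. Between the proximal and distal small intestine (2 libraries each) none of the 8 members was called, against 0.00% of 15491 genes by edgeR, of which 536 had an unadjusted p under 0.05, while DESeq2 called 26 genes and limma-voom 0. Prox1 had 1172 and 1124 CPM in jejunum and 1037 and 1114 in ileum, a log2 difference of 0.11 ± 0.15. Nr2f2 differed least, with 1163 and 1128 against 1145 and 1158 and a log2 difference of 0.01 ± 0.15. The other members lay between -0.11 ± 0.13 (Erg) and 0.12 ± 0.14 (Tbx1), all less than their standard error. At this depth and number of libraries a difference of this size could not be told from 0.

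Between the small intestine and the large bowel (4 libraries against the cecum and the large intestine together) again none of the 8 was called, against 18.6% of 13997 genes. Gata2 came nearest. It had 28.8 and 35.8 CPM in jejunum, 29.5 and 32.7 in ileum, 63.4 in cecum and 35.7 in large intestine, so the cecum stood above the other 5 and the large intestine lay within the range of the small intestine. The log2 difference, small intestine minus large bowel, was -0.56 ± 0.23 (n = 6, edgeR adjusted p = 0.111). It was -0.95 without the large intestine (edgeR adjusted p = 0.0343) and -0.08 without the cecum (edgeR adjusted p = 0.831), so this value rests on the cecum library, with 218 lymphatic cells.

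The remaining members differed by 0.38 ± 0.23 (Sox18) to -0.23 ± 0.22 (Hhex) on the log2 scale between the small intestine and the large bowel. Sox18 was 138 and 202 in jejunum, 145 and 185 in ileum, 91.4 in cecum and 167 in large intestine, and its log2 difference was 0.92 without the large intestine and 0.09 without the cecum, so it too rests on the cecum library. Within the 4 libraries of 1 hashtag set, a choice made after the data had been seen, Hhex was 33.7 and 35.3 in jejunum and ileum against 55 and 47.5 in cecum and large intestine. The log2 difference there was -0.58 (n = 4, edgeR adjusted p = 0.0695), against -0.23 ± 0.22 in the full fit. Both replicates 2, at 48.1 and 51.7, lay above the other jejunum and ileum libraries and near the large bowel values. Gata2 was -0.73 in the same 4 libraries (edgeR adjusted p = 0.0556), Fli1 changed sign to -0.09, and none of the 8 was called. The hashtags gave a further view of the spread. Over 18 hashtag groups of 57 to 2006 lymphatic cells, Prox1 ranged from 882 to 1224 and Nr2f2 from 821 to 1229, whereas Gata2 ranged from 13.7 to 85. Gata2 was 50.4, 57.3 and 85 in the groups of the cecum and at most 40.3 in those of the other libraries. The ends of the Gata2 range rested on 16 UMIs in a group of distal replicate 1 and 29 UMIs in a group of the cecum. Counting error is therefore larger for Gata2, and its part in this range was not tested.

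Within the lymphatic gate, cells with a UMI of at least 2 of Cldn11, Gja4 and Itga9, genes of lymphatic valves, were compared with the rest. Cells were split on all their UMIs, before any thinning, so cells with more UMIs could pass more easily. The part of depth in the differences below was not tested. The split was not followed by most other valve genes. Of the 11 tested, 3 were called higher, namely Gja4 and Cldn11, which set the split, and Klf2 at 0.27 ± 0.04 (edgeR adjusted p = 0.0151). Foxc2, a defining valve factor, stood at 0.24 ± 0.07 (edgeR adjusted p = 0.206), and Itga9, also used for the split, at 0.21 ± 0.06 (edgeR adjusted p = 0.207), so these cells are named only by their markers. None of the 8 members was called, against 0.559% of 11623 genes. Gata2 was 32.6 and 41 CPM in valve-marker cells of jejunum, 30.5 and 36.1 in ileum, 85.8 in cecum and 36.5 in large intestine. The other lymphatic cells had 27 and 33.2, 28.8 and 31.4, 53.1 and 35.2 in the same order. Gata2 was higher in valve-marker cells in 6 of 6 libraries, by 0.26 ± 0.07 on the log2 scale (n = 6, edgeR adjusted p = 0.11, and 0.0446 without a filter on low counts). For Hhex the log2 difference was -0.09 ± 0.06 (n = 6, edgeR adjusted p = 0.791), negative in 6 of 6 libraries, but 0.01 when cells were thinned to 2500 UMIs. Prox1 was 927 to 1210 in valve-marker cells and 949 to 1159 in the others.

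Related factors place the members in their families. The counts of each list are to be read against all genes tested, of which 28.0% were called higher and 37.5% lower against fibroblasts, and 24.8% higher and 26.6% lower against blood endothelial cells. Of the SOXF factors, all 3 were called higher in lymphatic cells than in fibroblasts and all 3 lower than in blood endothelial cells. Sox17, a factor of arteries, was lowest against blood endothelial cells at a log2 fold change of -6.39 ± 0.33 (edgeR adjusted p = 1.66e-07), with a mean of 3.36 against 266 CPM, while Sox18 itself differed least. Of the 8 endothelial ETS factors 7 were tested. Erg and Fli1 are in this list, so their calls given above are counted again here. Against blood endothelial cells 0 were called higher, 6 lower and 1 neither, with a median of -0.85, and the extremes were Elf1 at -2.63 ± 0.10 (edgeR adjusted p = 3.03e-08) and Elk3 at -0.01 ± 0.11 (edgeR adjusted p = 0.955). Against fibroblasts 6 of the 7 were called higher and 1 lower.

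Of 22 other endothelial transcription factors, 21 were tested against blood endothelial cells, and 6 were called higher (24.8% of all genes), 10 lower (26.6%) and 5 neither in lymphatic cells. All 22 were tested against fibroblasts, and 12 were called higher (28.0% of all genes), 5 lower (37.5%) and 5 neither. Their medians were -0.24 and 1.30. The extremes against blood endothelial cells were Maf, a factor of lymphatic development, at 6.84 ± 0.19 with a mean of 1642 against 14 CPM (edgeR adjusted p = 9.02e-09), and Meox2 at -5.62 ± 0.25 (edgeR adjusted p = 7.34e-08). Among 18 lymphatic effector genes that the gate did not use, 12 were called higher, 5 lower and 1 neither against blood endothelial cells, with a median of 1.47, the share called lower being near the 26.6% of all genes. Thy1 had the largest change at 7.49 ± 0.25 (edgeR adjusted p = 1.49e-08), and Fgfr3, a receptor listed as a PROX1 target, the lowest at -3.55 ± 0.29 (edgeR adjusted p = 4.1e-06), with a mean of only 1.22 CPM in lymphatic cells. Of 12 lymphatic valve genes 11 were tested, and 5 were called higher, 3 lower and 3 neither, where 24.8% and 26.6% of all genes were called. They ranged from Cldn11 at 4.64 ± 0.58 (edgeR adjusted p = 9.05e-05) to Klf2, a flow-responsive factor, at -2.00 ± 0.14 (edgeR adjusted p = 1.63e-06). All comparisons with blood endothelial cells here had n = 5 libraries, and those with fibroblasts n = 6.

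The genes whose levels ran most like each member are given as a description, from Pearson correlations over 45 sums of a class and library, among 13236 genes and without the gate markers. The sums of a class share its cell type and those of a library share its depth, so the points are not independent. Prox1 was followed most closely by Lcn2, Sgsm1 and Clca2 (r = 0.962, 0.962 and 0.959) and Tbx1 by Slc45a3, Tnfaip8l3 and D330037F02Rik (0.976, 0.970 and 0.969). Gata2 ran with Sox7, Cyyr1 and Adgrl4 (0.991, 0.989 and 0.987), Sox18 with Dipk2b, Nova2 and Tal1 (0.986, 0.986 and 0.985) and Erg with Shank3, She and Thsd1 (0.954, 0.949 and 0.943). Nr2f2 ran with Gng11, Timp3 and Zcchc14 (0.966, 0.938 and 0.920). Hhex and Fli1, the members found in immune cells too, had lower best values, 0.902 for Hhex with Lmo2 and 0.914 for Fli1 with Gm26510.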

How the data were processed

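Single-cell libraries made with a 10x 3′ kit were analysed from the raw UMI counts that the authors deposited, made by them with Cell Ranger (8.1.0 in their notes, 8.0.1 in the matrix header) on mm39 with a tdTomato sequence added. Kept cells had a mitochondrial share under 10%, between 1000 and 7500 genes and between 2500 and 40000 UMIs. Doublets were removed per library with Scrublet in scanpy 1.11.5 at an expected 0.8% per 1000 cells, which marked 4.91% to 11.4%. No free RNA correction was applied to the main values, and barcodes with at most 100 UMIs held 2.9% to 3.82% of UMIs. Classes were set by marker gates, without clustering. The authors also removed clusters with almost no tdTomato+ cells as contaminants, a step not applied here. Blood endothelial cells, with no tdTomato UMI, were therefore kept, and whether the sort carried them over was not tested.

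UMIs were summed per library and class (at least 20 cells) and tested in R 4.3.3 with the edgeR 4.0.16 quasi-likelihood test (TMM, filterByExpr at a minimum count of 10, Benjamini-Hochberg adjustment over all genes tested, threshold 0.05). Library was a block between classes of the same libraries, and regions were compared without a block. Standard errors are the fitted change over the square root of F. DESeq2 1.42.0, limma-voom (limma 3.58.1), RLE scaling, no filter, left-out libraries, other gates, doublets kept, several-hashtag cells removed, 10% free RNA subtracted, thinning to 2500 UMIs, other blocks and, added after seeing the data, a limit on blood endothelial markers and the hashtag set were alternatives. The fits were tested on simulated data with known changes.

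The members and gene lists were chosen with earlier results of these data known. Named genes are the 8 members, the largest and smallest fitted change of each list and the 3 genes most like each member (log2 of CPM plus 5, genes over 20 in at least 1 sum). Bounds for a count of 0 use 3 counts and cover counting error only. Genes overlapping on the same strand may share reads, which applies to Prox1, Erg and Fli1. Sox18, Nr2f2, Gata2 and Tbx1 overlap genes of the opposite strand only, and Hhex overlaps none.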

Additional observations from a re-analysis of the deposited data

Results flagged for a closer look

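Gata2 in the lymphatic cells of the cecum was 63.4 CPM, and the other 5 libraries lay between 28.8 and 35.8. The gap to the nearest library was 0.798 of the whole range, above Dixon's 95% critical value for 6 samples. Of 24 sets of libraries checked this was the 1 value found, and chance alone gives about 1 in 20. The cecum held 218 lymphatic cells, the fewest of any library, and the part of this in the value was not tested. Its hashtag groups, all of that same library, had 50.4, 57.3 and 85.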

How the results depend on the processing

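Members kept their call and direction in 160 of 160 refitted values for lymphatic cells against fibroblasts and in 152 of 152 against blood endothelial cells. Among these was the limit of at most 1 blood endothelial marker, chosen after seeing the data. It leaves out lymphatic cells with more blood endothelial markers, so calls kept under it against blood endothelial cells say little about stability. With 10% free RNA subtracted, fibroblast levels came near 0 and fitted log2 changes reached 13.54 (Prox1), 15.90 (Sox18), 13.82 (Gata2), 16.05 (Tbx1) and 14.08 (Hhex), values that depend on the prior count. That step takes more than the fibroblast level of these genes in most libraries and can only raise their folds, so their calls under it say nothing about stability. The same holds over blood endothelial cells for Tbx1, which came near 0 there (log2 change 13.69), and for Prox1 (6.93). Stricter limits on lymphatic markers in either class can likewise raise the folds of lymphatic genes, so calls of Prox1 and Tbx1 kept under them say little.

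For blood endothelial cells against fibroblasts, 113 of 118 were the same. Nr2f2 was -0.06 after thinning, and Tbx1, not called, was 0.03 with DESeq2, 0.87 with limma-voom, 0.01 with doublets kept and -0.48 to 0.12 with a library left out. Between proximal and distal, 109 of 120 were the same, none was called, and Nr2f2 was -0.01 after thinning and 0.00 with 2 or more markers. With a library left out there, the ranges were -0.26 to 0.32 (Sox18), -0.11 to 0.23 (Gata2), 0.00 to 0.25 (Tbx1), -0.39 to 0.23 (Hhex), -0.20 to 0.01 (Erg) and -0.22 to 0.10 (Fli1). A lone library in a group was assumed to vary like the others. Against the large bowel, Tbx1 was 0.02 after thinning and -0.21 to 0.16 with a library left out, and Fli1 was -0.09 within 1 hashtag set and -0.06 with the set as a term. In the valve split, Tbx1 was -0.02 and Hhex 0.01 after thinning. The cause of these changes was not tested.

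The count of genes called between proximal and distal was 0, and it was 26 with DESeq2, 205 without a filter and 0 to 25 with a library left out. With the replicate number as a block it was 37, and the block changed the call or direction of no member. The labels do not say that a number marks shared mice, although the replicate number follows the set of hashtags in the libraries, and the replicate differences of the 2 regions had r = 0.26 over 15484 genes, with only 2 pairs. Against the large bowel the count was 2610, 1605 within 1 hashtag set, 1579 with the hashtag set as a term (both chosen after seeing the data), 1374 after thinning and 938 to 3454 with a library left out (938 without the cecum). In the valve split it was 65, 396 without a filter, 13 with free RNA subtracted, 102 after thinning, 2 without the library block and 9 to 120 with a library left out.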
